A study of Epimedium pseudowushanense with 3 samples.

Results

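In seeds of Epimedium pseudowushanense, 198 of 178603 assembled transcripts stayed within a set bound while the embryo grew and were higher once the seeds germinated. They were chosen on log2(RPKM + 1), where RPKM is a read count divided by transcript length and by the library's mapped reads. A transcript had to average at least 10 RPKM over the 3 libraries, to differ by less than 1 over the first step (from the start of embryo growth to the middle stage) and to be higher by at least 1 at the last step (from the middle stage to germination). Of the 7385 transcripts that passed the filter on the mean, 543 (7.35%) were higher by at least 1 at the last step, and the 198 make up 2.68% of the 7385. All 3 columns of the table were used to choose them, so their levels and steps are a description, and no test was made on them.

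Seeds at the start of embryo growth (the first stage), seeds with an embryo longer than 0.5 of the seed (the middle stage) and germinating seeds were each sequenced as 1 library of total RNA from whole seeds. No cultivar, treatment, seed age or pooling is given in the sources used here, and no stage has a replicate, so no value below carries an error between seed lots and none has a p-value. In whole seeds a higher RPKM can come from more cells that hold a transcript or from more of it per cell, and these cannot be told apart. The summed RPKM was 538942, 626584 and 615633 in the first, middle and germinating libraries, with 134657, 148343 and 87582 transcripts above 0. The number of reads is unknown. From the steps between low values, the germinating library had an estimated 6.54% fewer counted reads than the middle one, and the step was equal in the other two libraries.

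Epimedium seeds are shed with a small embryo that must grow inside the seed before the root can emerge, a condition called morphophysiological dormancy. In seeds in general, abscisic acid holds germination back and gibberellin promotes it. Germination is known to bring loosening of cell walls, use of stored oil, protein and starch, and a return to growth. The series was made to look for genes by which seeds make, break down and sense both hormones. The table pairs its identifiers with no gene names, so which of the 198 transcripts belong to any of these processes was not analysed here, and only 2 are given by identifier.

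As a group the transcripts stayed near one level through embryo growth and then stood well above it. Their median was 10.9 RPKM when embryo growth started, 13.0 RPKM at the middle stage and 41.1 RPKM once seeds germinated. The middle 50% of values lay between 6.86 and 19.8 RPKM, then 7.72 and 22.9 RPKM, then 26.6 and 71.3 RPKM. At germination the lowest of them was at 15.2 RPKM, above the middle-stage median of the group. The median of all 7385 transcripts that passed the filter on the mean moved less, with 18.8, 22.7 and 25.4 RPKM. Before germination the 198 were thus weaker than the typical transcript of that set, and at germination they were stronger. Both this contrast and the lowest germinating value follow in part from the rule, which asks for a rise at the last step.

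**Figure D1:**
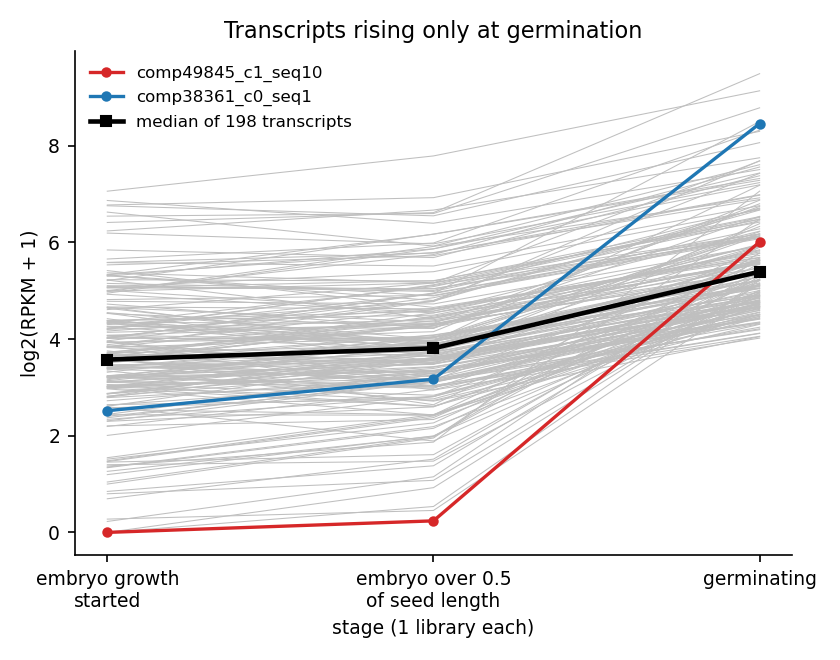
Levels of the 198 transcripts on the log2(RPKM + 1) scale (vertical axis) at the 3 stages, 1 library each (horizontal axis). Grey lines are single transcripts, the black line joins the medians of the 3 libraries, and the red and blue lines are the transcripts with the greatest last steps, of 5.77 and 5.29.

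Their order in each library does not depend on how a library is scaled, although the choice of the 198 does. It moved the same way, which follows in large part from a rule that asks for a rise at the last step. The ranks are therefore a description and no separate support. The median rank among all transcripts was 5963 for the first library, 6111 for the middle one and 2353 for the germinating one. All 198 ranked higher in the germinating than in the middle library, and 193 ranked higher in the germinating than in the first. Between the first 2 stages 93 of the 198 gained rank. Among the 1000 most abundant transcripts the 198 numbered 9 as embryo growth started, 7 at the middle stage and 35 at germination. Of the 100 most abundant, none was in the group before germination and 1 was at germination. In each library all 1000 and all 100 belonged to the 7385 transcripts that passed the filter on the mean. The 198 are 2.68% of those 7385.

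Together the 198 transcripts summed to 3547 RPKM in the first library, 4041 RPKM in the middle one and 13870 RPKM in the germinating one, or 0.658%, 0.645% and 2.25% of what each library held. The sum was 1.14 times as high at the middle stage as at the first, and 3.43 times as high at germination as at the middle stage. The sum at germination was spread over many transcripts. The most abundant one held 5.19% of the group's sum at germination, the first 10 held 27.1% and the first 20 held 39.6%.

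The size of the last step varied widely around a median log2 difference of 1.40. The median of all 7385 transcripts, which need not meet the rule, was 0.08. In the 198 the last step lay between 1 and 1.5 in 114 (57.6%) and between 1.5 and 2 in 30. It lay between 2 and 3 in 32, between 3 and 4 in 13 and at 4 or more in 9. The group therefore consists mainly of modest increases with a smaller number of large ones. Without a pseudocount, the ratio of germinating to middle RPKM could be given for the 194 transcripts with at least 1 RPKM at the middle stage. Its median was 2.75, with an interquartile range of 2.32 to 4.58, and 17 of the 194 reached a ratio of 10. In 176 of the 198 the germinating value was at least 2 times the higher of the 2 earlier ones.

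The transcripts with the greatest last steps mostly started from very low levels. The greatest belonged to comp49845_c1_seq10, which was listed at 0 RPKM in the first library and had 0.18 RPKM in the middle one and 63.6 RPKM in the germinating one. Its log2 difference was 5.77 at the last step and 0.24 at the first. The most common value above 0 was 0.26, 0.25 and 0.27 RPKM in the first, middle and germinating libraries, so its middle value may rest on a single read or very few. A linear ratio is not given for it, and the size of its step depends on the pseudocount, as the difference was 7.83 with a pseudocount of 0.1 and 3.73 with a pseudocount of 5.

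The next, comp38361_c0_seq1, combined a large step with a high final level. It had 4.73 RPKM at the first stage, then 8.0 RPKM, and 351 RPKM at germination. Its germinating value was 43.9 times its middle value, a log2 difference of 5.29, and its first step was 0.65. It ranked 5 among the 198 by germinating RPKM, and it was the 1 transcript found both among the 10 greatest steps and among the 20 highest germinating levels.

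The transcript with the third greatest step had 1.59, 2.65 and 133 RPKM at the 3 stages and a last step of 5.19. Over the 10 greatest steps, which all reached at least 3.97, the first-stage values ran from 0 to 4.73 RPKM with a median of 0.48 RPKM. The middle-stage values ran from 0.18 to 8.0 RPKM with a median of 1.17 RPKM. At germination the same 10 lay between 30.4 and 351 RPKM, with a median of 45.0 RPKM. All 10 had a first step above 0, and 3 were listed at 0 at the first stage. In the middle library 9 of the 10 were under 3 RPKM, so most of these transcripts were barely seen until the seeds germinated.

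The transcripts most abundant at germination were a different kind, mostly well detected from the start. The most abundant had 84.2 RPKM in the first library, 97.2 RPKM in the middle one and 719 RPKM in the germinating one, where it ranked 78 in the whole library, with steps of 0.20 and 2.88. The second had 133, 220 and 563 RPKM, with a first step of 0.73 and a last step of 1.35. The third was the flattest of the leading transcripts before germination, with 92.4, 95.9 and 440 RPKM and steps of 0.05 and 2.19. The fourth started lower, with 17.6, 29.7 and 362 RPKM, and its last step was 3.56.

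Among the 20 highest at germination, all at 150 RPKM or more there, first-stage values lay between 4.73 and 133 RPKM and middle-stage values between 8.0 and 220 RPKM. Their last steps ran from 1.08 to 5.29, and 8 of the 20 reached 2. Their first step was above 0 in 14. The eighth most abundant is an example of the other 6, with 107, 92.8 and 267 RPKM. The twelfth dipped further, with 97.9, 59.8 and 194 RPKM, so that 0.70 of its last step of 1.68 made up for a fall at the first.

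Weak transcripts had the larger steps, in part because the rule asks for it. Of the 26 transcripts under 5 RPKM at the middle stage, all had a last step of at least 2, with a median of 3.56. Between 5 and 10 RPKM, 8 of 45 reached 2 and the median was 1.43. Between 10 and 20 RPKM it was 13 of 68 with a median of 1.31, between 20 and 50 RPKM 4 of 39 with a median of 1.25, and at 50 RPKM or more 3 of 20 with a median of 1.34. A transcript that is weak at both earlier stages can average 10 RPKM only through a high value at germination, so the filter on the mean keeps weak transcripts only where their step is large. Over the 198 transcripts the Spearman correlation of the middle level with the last step was -0.39, a description across transcripts of the same 3 libraries in which the middle value enters both measures.

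**Figure D2:**
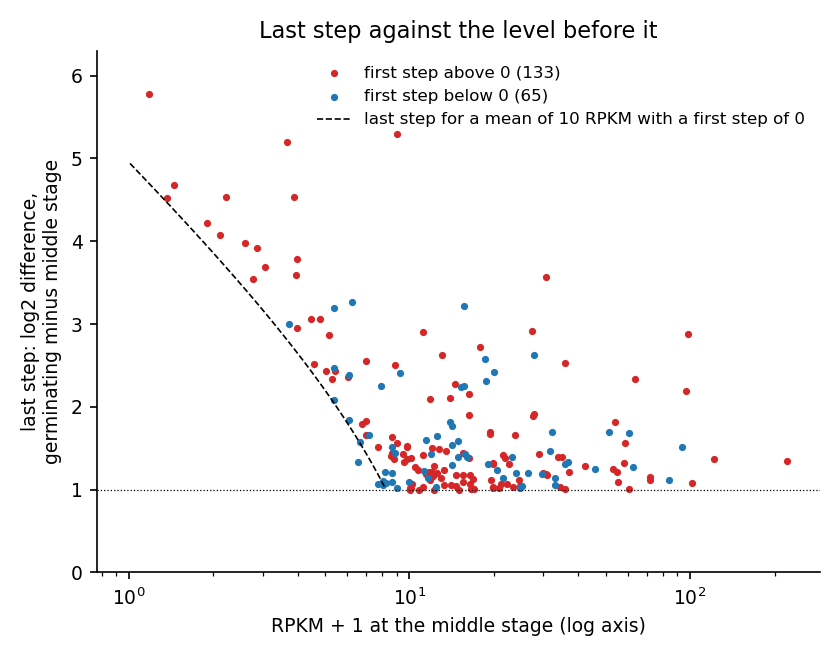
Last step on the log2(RPKM + 1) scale (vertical axis) against RPKM + 1 at the middle stage (horizontal log axis), 1 point per transcript, red where the first step was above 0 (133) and blue where it was below 0 (65). The dashed line marks the last step that gives a mean of 10 RPKM when the first step is 0. Points at low middle levels lie near or above that line, some of them well above it. Above a middle level of 10 RPKM most points lie between 1 and 2.

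Above 10 RPKM at the middle stage the filter no longer sets the size of the step, and 20 of the 127 transcripts found there had a last step of 2 or more. A last step of at least 2 was found in 54 of the 198 (27.3%), taken over all levels, where 2.09% of the 7385 had one. The rule asks for a last step of at least 1 in the 198 alone, so nothing is read from that difference. Of all 543 transcripts higher by at least 1 at the last step, 154 reached 2. The 54 had medians of 4.90, 5.07 and 49.4 RPKM at the 3 stages. They held 38.2% of the group's summed RPKM at germination and 16.9% at the middle stage. Of these 54, 13 reached 100 RPKM at germination and 7 were already at 20 RPKM or more at the middle stage.

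By mean level, the 198 were 2.99% of the transcripts between 10 and 20 RPKM (95 of 3174), 2.76% between 20 and 50 RPKM (70 of 2536), 2.48% between 50 and 100 RPKM (22 of 888) and 1.40% at 100 RPKM or more (11 of 787). The share of all transcripts higher by at least 1 at the last step ran the other way over the same classes, with 6.90%, 7.45%, 7.77% and 8.39%. Of the transcripts higher at the last step, the 198 thus made up 43.4%, 37.0%, 31.9% and 16.7% from the lowest class to the highest. The highest class had the lowest such share under each rescaling too, at 26.0% after median-of-ratios, 30.8% after trimmed-mean and 22.4% after equal-sums rescaling, against 56.1%, 57.6% and 50.5% in the lowest class. The share of the class as a whole did not decline step by step under median-of-ratios or trimmed-mean rescaling, where it was greatest between 50 and 100 RPKM, at 7.67% and 7.36%. As deposited the values at 100 RPKM or more rest on 11 transcripts.

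The transcripts varied in how level they were over the first step, and this depended on the pseudocount. With a pseudocount of 0.1, 18 of the 198 passed the bound of 1 on the first step and 180 stayed within it. The values that follow are as deposited. It was under 0.25 in size in 64 of the 198 (32.3%), between 0.25 and 0.5 in 42 (21.2%) and between 0.5 and 1 in 92 (46.5%). Over the 7385 transcripts, which include those past the bound of 1, the shares were 27.8%, 21.9% and 27.3%. Those past the bound lower the shares of the 7385, whose counts in the same classes were 2050, 1618 and 2018. The class from 0.5 to 1, which is wider than the others, was the largest in the 198. Of those 92, 73 were higher and 19 lower at the middle stage. In all, 133 of the 198 (67.2%) had a first step above 0 and 65 below 0. Over the 7385 transcripts the share above 0 was 68.5%, and the median first step was 0.30, against 0.24 in the 198.

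The median last step varied little with the first step. The largest last steps came with a first step above 0, but mostly from first-stage levels near 0. The median last step was 1.39 in the 133 transcripts with a first step above 0 and 1.43 in the 65 with a first step below 0. A last step of 2 or more was found in 29.3% of the 133 and 23.1% of the 65, and the greatest was 5.77 in the 133 and 3.26 in the 65. In the 64 flattest transcripts the median was 1.40, and in the 73 that were already higher by 0.5 or more at the middle stage it was 1.41. The levels differed between these sets. The 133 had medians of 8.95, 12.3 and 39.4 RPKM at the 3 stages, and the 65 had 19.0, 13.2 and 46.1 RPKM. Across the 198 transcripts the Spearman correlation between the steps was 0.02, again a description, since both steps contain the middle library. Among the 10 greatest last steps, all with a first step above 0, the first-stage median was 0.48 RPKM. For the 3 listed at 0 there, a first step below 0 was not possible. The sign of the first step also depended on scaling, being above 0 in 133 of the 198 as deposited and 100 after trimmed-mean rescaling. It was above 0 in 68.5% of all transcripts averaging at least 10 RPKM. No link between that sign and the largest last steps is read from this.

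From the first stage to germination, the difference was at least 1 in 174 of the 198 (87.9%), where 28.6% of the 7385 reached that size. It was at least 2 in 81 (40.9%, against 10.6% of the 7385) and at least 4 in 14 (7.07%, against 2.37%). The rule uses both steps that make up this difference, so nothing is read from these shares. The other 24 transcripts had a first step below 0, as the rule requires of them, and ended between 0.13 and 0.99 above the first stage. For them the middle library was a low point and the germinating value was less far from the first.

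**Figure D3:**
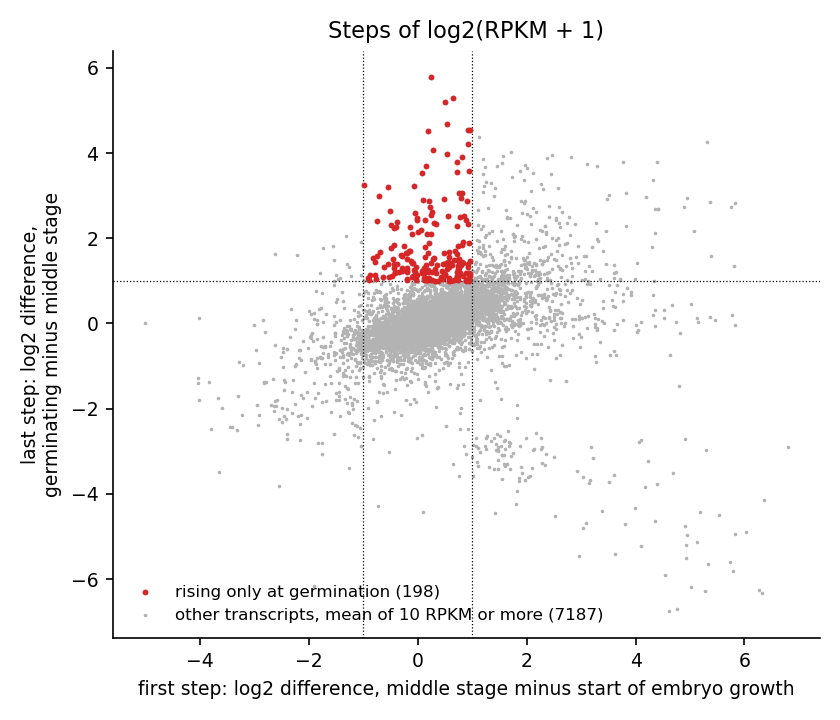
First step (horizontal axis) and last step (vertical axis) as differences in log2(RPKM + 1), 1 point per transcript, for the 7385 transcripts averaging at least 10 RPKM. Red points are the 198 chosen transcripts and dotted lines mark the bounds of the rule. The red points fill the width between the bounds and thin out upward, and 54 of them lie at 2 or above.

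Neither bound falls in a gap between kinds of transcript. The last step was exactly 1 in 2 of the 198, below 1.1 in 37 and below 1.2 in 61. The transcript nearest outside had 20.5, 27.9 and 56.8 RPKM and a last step of 0.998, and one of the 2 on the bound had 4.43, 9.07 and 19.1 RPKM. At the upper bound of the first step, the nearest inside had 36.0, 71.2 and 159 RPKM (first step 0.96) and the nearest outside 21.2, 43.4 and 103 RPKM (first step 1.00). On the side of decreases, the nearest inside had 11.4, 5.24 and 58.8 RPKM and the nearest outside 24.0, 11.5 and 30.7 RPKM. At the bound on the mean, the nearest inside averaged 10.1 RPKM and the nearest outside 9.90 RPKM, with 4.01, 4.61 and 21.1 RPKM at the 3 stages.

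The transcripts most like these were the 329 that were higher by at least 1 at both steps. The 198 made up 36.5% and the 329 made up 60.6% of the 543 transcripts higher at the last step, and the other 16 had been lower at the first step. Which group was larger depended on the setting. Median-of-ratios rescaling gave 492 rising only at germination and 500 higher at both steps, and trimmed-mean rescaling gave 490 and 423. A mean of 1 RPKM or more gave 845 and 550, no filter on the mean gave 1312 and 550, and a pseudocount of 5 gave 216 and 208. The order stayed as deposited with, among others, equal sums (233 and 297), a pseudocount of 0.1 (197 and 363) and a mean of 30 RPKM or more (71 and 159). The last step had a median of 1.40 in the 198 and 1.48 in the 329, and reached 2 in 27.3% and 30.1% of them. The groups differed more in level. The 198 had medians of 10.9, 13.0 and 41.1 RPKM over the stages, and the 329 had 3.54, 17.7 and 61.6 RPKM. At germination the 198 held 2.25% of the summed RPKM and the 329 held 10.2%, with 35 of the 198 and 116 of the 329 among the 1000 most abundant. The rule defines both groups, and with 1 library per stage no test of these differences was made.

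The mirror image, transcripts level over the first step and lower by at least 1 at the last, numbered 92, fewer than the 198, among the 7385. This order still held, but narrowly, when the filter was lowered to 1 RPKM, which left 845 rising and 834 lower. It was reversed once the filter was dropped, with 1312 rising and 3477 lower. Of the 7385, 333 (4.51%) were lower by at least 1 at the last step. The first step was above 0 in 67.2% of the 198, 40.2% of the 92 and 68.5% of the 7385. The 198 had a median last step of 1.40 and the 92 had one of -1.38, and the rule sets the bound of 1 in size that both lie past. At germination the 198 held 2.25% of the summed RPKM and the 92 held 0.947%, and at the middle stage the 198 held 0.645% and the 92 held 2.82%.

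The number of transcripts chosen depended on how the libraries were scaled to each other. Median-of-ratios rescaling moved the median last step of the 7385 transcripts by 0.32, and 492 transcripts then met the rule, 195 of the 198 among them (98.5% of the 198 and 39.6% of the 492). Trimmed-mean rescaling moved it by 0.29 and gave 490, with 190 of the 198 (96.0% of the 198 and 38.8% of the 490). Rescaling to equal sums moved it by 0.02 and gave 233, again with 190 of the 198. Under each of these 3 scalings the last step of all 198 was at least 1, with lowest values of 1.31, 1.28 and 1.02, which follows from the rule and from shifts that all went upward. The 3 transcripts that left the group after median-of-ratios rescaling and the 8 that left after trimmed-mean rescaling passed the bound on the first step, as did 6 after equal-sums rescaling, where another 2 fell under the mean of 10 RPKM. Without the most abundant transcript, 192 of the 198 had a last step of at least 1 and the lowest was 0.99. The median last step of the 198 minus that of the 7385 was 1.31 as deposited and lay between 1.31 and 1.32 under the 3 scalings, since a scaling shifts both. The sign of the first step was less settled, as it was above 0 in 133 of the 198 as deposited, in 126 after median-of-ratios, 105 after equal-sums and 100 after trimmed-mean rescaling.

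**Figure D4:**
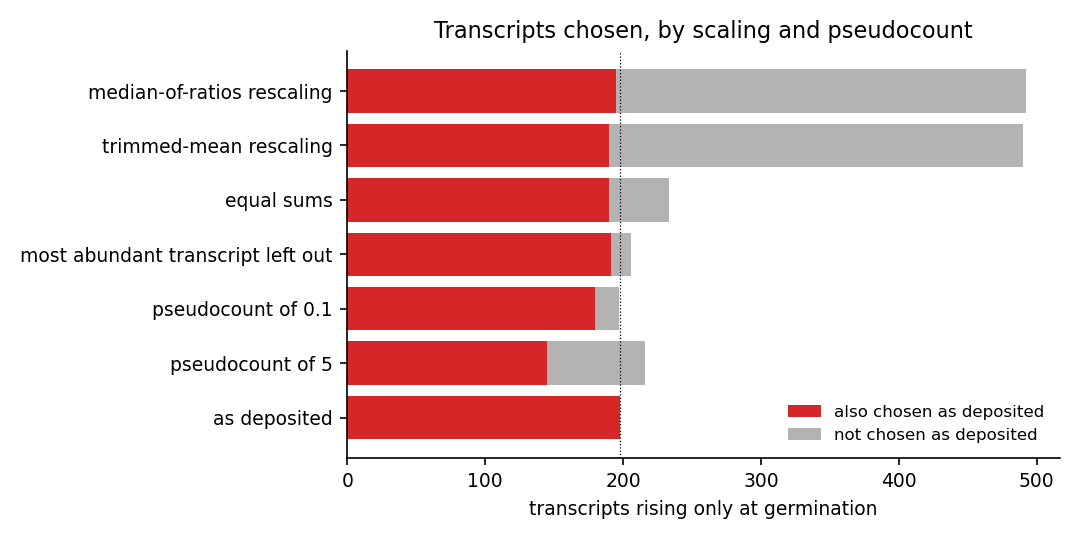
Number of transcripts that met the rule (horizontal axis) under 3 scalings, without the most abundant transcript, with other pseudocounts and as deposited. Red parts are transcripts that were also among the 198 chosen as deposited (dotted line), and grey parts were not. Median-of-ratios and trimmed-mean rescaling bring the number to 492 and 490, and the red part falls to 145 with a pseudocount of 5.

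The identifiers hold little else that the rule did not use. Each ends in a sequence number within its assembly component. That number was above 1 in 35 of the 198 (17.7%) and in 17.4% of the 7385. In the usual form of such names this marks a component with more than 1 assembled sequence, and the table gives 1 sequence per component. A single pair of the 198 shared a component family. Its members had 29.4, 22.3 and 60.0 RPKM and 9.45, 11.6 and 27.9 RPKM at the 3 stages. Whether they share sequence was not tested.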

How the data were processed

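Total RNA of whole seeds was extracted with TRIzol and sequenced as paired-end reads on an Illumina HiSeq instrument, per the labels' protocols. The authors deposited 1 table of RPKM values with 2 decimals, and each column was assigned to a stage because its name equals a library's title. R 3.1.0 is the one tool in the submitters' processing notes. The sources used here do not give how transcripts were assembled, reads aligned and counted, or values filtered. Because RPKM is relative to a library's total, a few very abundant transcripts lower the values of the rest.

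From these values log2(RPKM + 1) and its 2 steps were computed with Python 3.11.15, numpy 2.4.6 and pandas 2.3.3, and differences within 1e-09 of a bound were taken as on it. With 1 library per stage no test was possible. The rule was tested on simulated data. That simulation held no variation between seed lots, so it gives no error for the values described here. The 2 transcripts with the greatest last step are named, and others are described by rank among the 20 highest at germination, the 10 greatest steps and those nearest each bound. The transcripts, groups and rules were chosen with earlier results of these data known. The alternatives were other pseudocounts, filters, scalings and bounds. Trimmed means were taken without 30% of the ratios and 5% of the levels at each end. Relative depth came from transcripts with 0.4 to 1.2 RPKM in both libraries.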

Additional observations from a re-analysis of the deposited data

How the results depend on the processing

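No paired analysis was possible because each stage had 1 library, and for the same reason no replicate could be left out. The alternatives are given with the number chosen (198 as deposited), how many of them reached 100 RPKM at germination (35), their median last step (1.40) and their share of the summed RPKM at germination (2.25%), then the number higher at both steps (329) and the number level then lower (92). Where one is missing and nothing else is said, counts were within 1.5 times and other values did not change at 3 digits. Median-of-ratios rescaling gave 492, 86, 1.28, 5.48%, 500 and 51. Trimmed-mean rescaling gave 490, 84, 1.27 and 5.76%, with 54 level then lower. Equal sums gave a share of 2.78%. Leaving out the most abundant transcript gave a median of 1.39 and a share of 2.45%. A pseudocount of 0.1 gave 1.35 and 2.23%, and a pseudocount of 5 gave 1.501 and 2.55%, with 208 higher at both steps. With a pseudocount of 5, 145 of the 198 were among the 216 chosen. Without a filter on the mean there were 1312 transcripts, a median of 1.33 and a share of 3.14%, with 550 higher at both steps and 3477 level then lower. A mean of 1 RPKM or more gave 845, 1.48, 3.02%, 550 and 834, and a mean of 30 RPKM or more gave 71, a share of 1.59%, 159 and 45. Asking for a last step of 2 gave 54, 13, 2.79, 0.860%, 99 and 19. A bound of 0.5 on the first step gave 106, 21, 1.38 and 1.26%, with 48 level then lower, and the number higher at both steps was not recomputed there. The filters and bounds change these numbers by construction. The cause of the changes under rescaling was not tested. Values near 0.3 RPKM or below may rest on single reads, which limits the steps of transcripts that were weak before germination.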

Other observations

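Below the mean of 10 RPKM, further transcripts met both step bounds. There were 136 with a mean from 5 up to 10 RPKM, 511 from 1 up to 5 RPKM and 467 under 1 RPKM. These were not described further.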
